A study of Mus musculus with 8 samples.

Results

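PIWI proteins, the Tudor domain proteins that hold them in place and their helicase and HMG box partners were examined in whole testes of 27-day-old mice on Affymetrix arrays. The genes were Piwil1, Piwil2, Piwil4, Tdrd1, Tdrd5, Tdrd6, Tdrd7, Tdrd9, Mael and Mov10l1, and every probe set annotated with 1 of these 10 symbols was taken. This gave 11 of the 45037 probe sets, for 9 of the 18193 genes named on the array. Tdrd6 matched no probe set in the annotation used and was not analysed here. Of the 11 probe sets, 8 passed a filter on low values, 1 for each gene except Piwil4 and Tdrd6. Both probe sets of Piwil4 and a second one of Tdrd7 lay under it.

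The comparison was of 4 mice titled wild type with 4 mutants labelled Brwd1-/-, 1 array per mouse, and it asks which transcripts differ in testes without Brwd1, a bromodomain and WD repeat gene. The genotype entry of the 4 controls reads Brwd1+/-, which would leave them with a single mutant copy, but the name in the titles, wild type, is kept for them. The sources used here give neither the kind of mutation nor the strain. All 8 mice were 27 days old and untreated, and at that age spermatids are partway through their development, per the series' design text.

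Piwi-interacting RNAs, or piRNAs, are small RNAs of germ cells that guide PIWI proteins to transposon and other transcripts. Long precursors are transcribed from piRNA clusters, brought to the processing machinery, cut and loaded into PIWI proteins. Tudor domain proteins bind methylated arginines of the PIWI proteins and gather them in granules beside mitochondria and, in spermatids, in the chromatoid body. In the mouse, the pathway acts in fetal germ cells to silence transposons and again at high level in pachytene spermatocytes and round spermatids, and males without most of its genes are sterile.

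The arrays had median intensities between 90.3 and 124, and their number limits the precision of every value. Replicates 1 and 2 of both genotypes stood apart from replicates 3 and 4, in which the summed intensity of 5 epididymis markers was 34647 to 42415 against 131 to 305. The labels name no batch, so values within each pair of replicate numbers are given beside the pooled ones. Mutant replicate 1 had the lowest summed intensity of elongating spermatid markers, 3579. Brwd1 itself gave no check of the labels: none of its 4 tested probe sets was called lower in mutants in any of 3 fits, with log2 differences from -0.28 to 0.31. Germ cell, Sertoli and Leydig markers of the labelled tissue were read, such as Ldhc at 24298 ± 4077 and Clu at 21289 ± 951 in wild type (SD, n = 4). The Clu probe set may match other transcripts, and the Sertoli marker Amh lay under the filter (mean 38.9 over the 8 arrays). Given the epididymis markers, such as Lcn5 at 10638 to 13714 in replicates 3 and 4, testis alone was not shown for those arrays.

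No member of the PIWI and Tudor group was called different between genotypes. Of 8 probe sets tested, 4 had lower and 4 had higher means in mutants, with log2 differences from -0.19 (Piwil1) to 0.35 (Tdrd5) and a median of 0.01, against a median of 0.07 over all 27022 probe sets tested. Here a log2 difference is that of log2(intensity + 16), mutant minus wild type, tested with limma and called at an adjusted p of 0.05. The background was low: 31 probe sets, 0.115%, were called without a block, all of them lower in mutants. With the replicate number as a block 646 were called (2.39%) and with replicates 1 and 2 against 3 and 4 as a block 485 (1.79%), among them 0 of the 8 members. At an unadjusted p of 0.05, limma gave 0 of 8 members without a block, 1 under the replicate block and 3 under the batch block, where 7.43%, 14.3% and 14.6% of all probe sets passed. In none of the 8 did the genotypes separate without overlap, as 6.1% of all probe sets did. At such shares, 0 of 8 called and 0 of 8 separated are near the background. In bulk tissue, fewer cells of a type and less RNA per cell cannot be told apart.

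**Figure D1:**
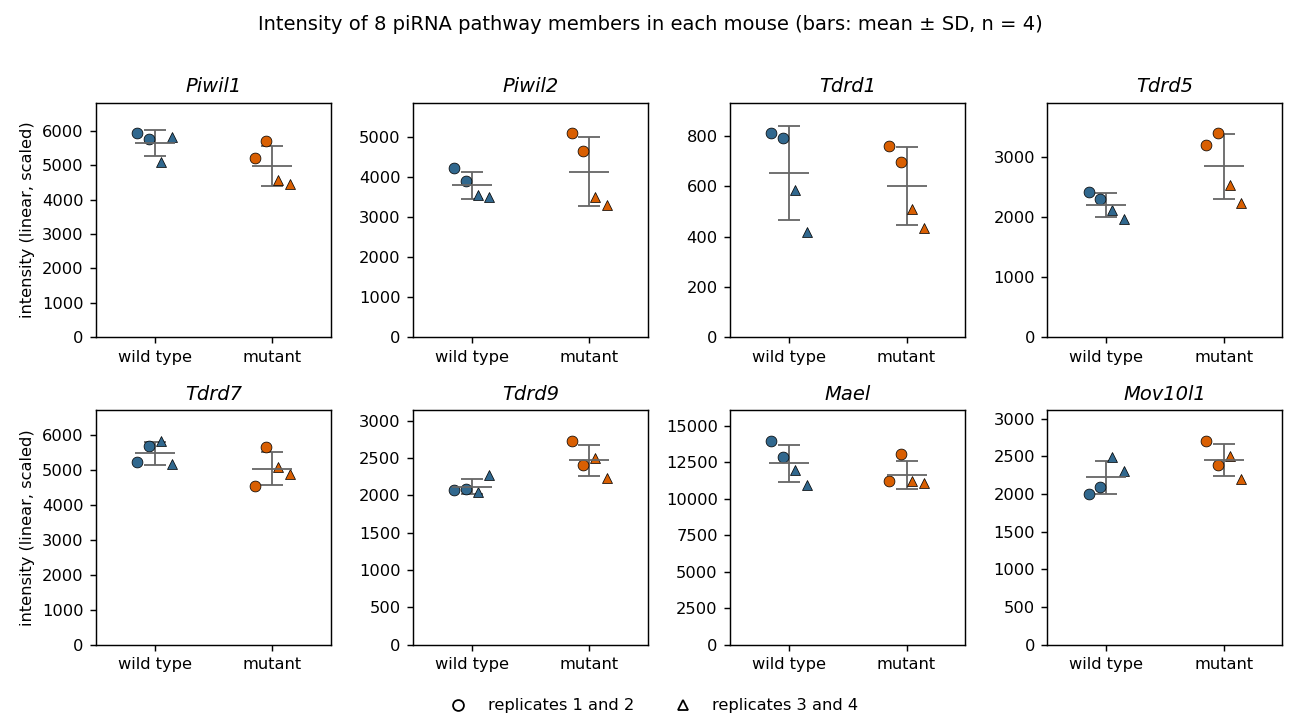
Intensity (linear scale, axis from 0) of the 8 tested members in each mouse, wild type in blue and mutants in orange, with circles for replicates 1 and 2, triangles for replicates 3 and 4, and bars for the mean ± SD (n = 4). The genotypes overlap in every panel, and triangles lie below circles in both genotypes for Piwil2 and Tdrd1.

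The promoters of the members with the most negative difference (Piwil1), the most positive (Tdrd5) and the one closest to 0 (Mael) are shown to give the sequences from which these transcripts start. A-MYB, the product of Mybl1, is a transcription factor of pachytene spermatocytes that drives pachytene piRNA precursors and several genes of the pathway, so the MYB core AACNG was searched on both strands. Each line gives the 250 bases before the annotated start, 5′ to 3′ on the gene's strand, from RefSeq on GRCm38.p6, with core matches in capitals (on the other strand they read CNGTT).
Piwil1, chr5:128735996-128736245, plus strand: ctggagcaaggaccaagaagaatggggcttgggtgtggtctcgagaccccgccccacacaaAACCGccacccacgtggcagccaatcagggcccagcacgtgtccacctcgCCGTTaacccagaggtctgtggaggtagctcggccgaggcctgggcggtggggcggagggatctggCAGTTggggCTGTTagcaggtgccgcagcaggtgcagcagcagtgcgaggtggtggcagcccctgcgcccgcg
Tdrd5, chr1:156303349-156303598, minus strand: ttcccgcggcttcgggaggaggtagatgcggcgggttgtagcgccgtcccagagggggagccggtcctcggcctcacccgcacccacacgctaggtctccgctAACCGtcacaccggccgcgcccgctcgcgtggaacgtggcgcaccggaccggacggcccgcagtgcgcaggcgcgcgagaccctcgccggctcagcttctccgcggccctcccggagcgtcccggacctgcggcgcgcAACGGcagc
Mael, chr1:166238745-166238994, minus strand: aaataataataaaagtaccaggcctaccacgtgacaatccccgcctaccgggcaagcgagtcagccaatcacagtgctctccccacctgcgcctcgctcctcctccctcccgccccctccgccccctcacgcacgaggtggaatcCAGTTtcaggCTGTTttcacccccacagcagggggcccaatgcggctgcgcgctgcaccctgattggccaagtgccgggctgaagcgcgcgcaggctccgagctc
The Piwil1 window held 4 matches, a number reached by 7.0% of all 32851 windows of this length, and those of Tdrd5 and Mael 2 each, reached by 42%. At least 1 match stood in 12 of the 13 windows of the 8 members with a window, and in 74.2% of all windows. These 8 are not the 8 tested members, as they include Piwil4, while Piwil2 had no window. Windows of the same gene can overlap, as for Tdrd1. The CG dinucleotide occurred 16 times in the window of Piwil1, 40 times in that of Tdrd5 and 18 times in that of Mael, where the median window held 6. A match describes the letters of the window and not binding, which these arrays did not measure.

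Piwil1, which encodes MIWI, the PIWI protein of pachytene spermatocytes and round spermatids, had the most negative difference. Its intensity was 5931, 5778, 5106 and 5818 in wild-type replicates 1 to 4 and 5205, 5698, 4559 and 4452 in the mutants. Each mutant read below the wild-type mouse of the same number, but mutant replicates 1 and 2 lay above wild-type replicate 3. Mice that share a number were not shown to be matched, here and below. The Piwil1 means were 5658 ± 374 and 4979 ± 584 (SD, n = 4 each). The log2 difference was -0.19, with a 95% confidence interval from -0.45 to 0.08 (limma, adjusted p = 0.917). Piwil2, which encodes MILI, present from fetal germ cells to round spermatids, read 4233, 3903, 3540 and 3506 in wild type and 5092, 4644, 3505 and 3299 in mutants. Mutant replicates 1 and 2 were the highest of the 8 and mutant replicates 3 and 4 the lowest, so the pooled log2 difference of 0.10 (interval from -0.26 to 0.47, adjusted p = 0.999) joins 0.26 in replicates 1 and 2 with -0.05 in replicates 3 and 4.

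Piwil4, which encodes MIWI2, the nuclear PIWI protein of fetal male germ cells, lay under the filter on low values with both of its probe sets. The brighter of its probe sets, of a type whose probes may match other transcripts, read 4.6 to 40.7 in wild type and 17.6 to 40.7 in mutants. The dimmer one read 12.7, 17.1, 21.9 and 11.2 in wild type and 3.3, 9.4, 5.9 and 6.5 in mutants, so all 4 mutants lay below all 4 controls, as did 3.83% of the probe sets above the filter, while 2.26% had all mutants above all controls. Its mean ranked at percentile 7.73 of all probe sets. Detection calls were not used here, so the distance of such values from background is unknown. With no filter on low values neither was called (limma, adjusted p = 0.554 for the dimmer probe set and 0.999 for the brighter).

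Among the Tudor domain genes, Tdrd5 had the largest difference of the tested members, with higher means in mutants. TDRD5 is needed for chromatoid body assembly, for transposon silencing and for the making of pachytene piRNAs. It read 2422, 2292, 2106 and 1966 in wild type and 3198, 3390, 2537 and 2235 in mutants. Every mutant lay above the wild-type mouse of the same number, while mutant replicate 4 lay below wild-type replicates 1 and 2. The means of 2196 ± 201 and 2840 ± 544 (SD, n = 4 each) gave a log2 difference of 0.35, with an interval from -0.01 to 0.71. None of the 3 fits called it, at adjusted p = 0.687 unblocked, 0.154 by replicate block and 0.104 by batch block (limma).

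Tdrd9, a Tudor domain helicase gene whose protein works with MIWI2 in transposon silencing, followed with a log2 difference of 0.22. It read 2067, 2089, 2041 and 2273 in wild type and 2728, 2406, 2505 and 2227 in mutants. Mutant replicates 1 to 3 lay above all 4 controls and mutant replicate 4 lay among them (interval from -0.04 to 0.47, adjusted p = 0.818). Tdrd7, which encodes a chromatoid body protein that also represses LINE1 elements, had a small negative difference. Its tested probe set read 5206, 5675, 5820 and 5149 in wild type and 4525, 5635, 5069 and 4883 in mutants, a log2 difference of -0.12 (interval from -0.37 to 0.12, adjusted p = 0.999). Each mutant was below its wild-type number, by little in replicate 2. The second Tdrd7 probe set read 1.4 to 3.7 in wild type and 3.0 to 6.9 in mutants, at percentile 0.917 of the array, and was not called when the filter was dropped (limma, adjusted p = 0.999).

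Tdrd1, whose protein binds MILI and is needed for the correct piRNA content of MILI, varied most among the mice. It read 811, 793, 587 and 417 in wild type and 761, 699, 512 and 434 in mutants. The highest value was 1.94 times the lowest, against 1.27 to 1.72 times for the 7 other tested members, and the spread followed the replicate numbers rather than the genotypes. The log2 difference between genotypes was -0.10, with the widest interval of the group, from -0.69 to 0.48 (adjusted p = 0.999).

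Mael and Mov10l1 complete the group. Mael, whose HMG box protein acts in piRNA production and transposon repression, read 13952, 12844, 11966 and 10963 in wild type and 11211, 13090, 11199 and 11093 in mutants. Mutants other than replicate 2 lay together near the low end of the wild-type range, and the log2 difference was -0.09 (interval from -0.33 to 0.15, adjusted p = 0.999). Mov10l1, the helicase that feeds precursor transcripts into piRNA processing, read 2000, 2090, 2487 and 2304 in wild type and 2705, 2382, 2503 and 2199 in mutants. The highest mouse was mutant replicate 1 and the lowest wild-type replicate 1, and the log2 difference was 0.14 (interval from -0.14 to 0.42, adjusted p = 0.999). In replicates 1 and 2 alone this difference was 0.31, and in 3 and 4 alone it was -0.03.

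The intervals of the unblocked and the blocked fits differed in width. Over the 8 members, the lowest bound of the unblocked fit was a 1.61-fold fall (Tdrd1) and the highest a 1.64-fold rise (Tdrd5). For Piwil1 the interval ran from 0.731 to 1.05 times the wild-type level, and for Mael from 0.795 to 1.11 times. With the replicate block they narrowed to 0.764 to 1.01 times for Piwil1 and 0.832 to 1.06 times for Mael. For Tdrd5 the replicate-block interval ran from 1.08 to 1.51 times and did not include 1, but the adjusted p of 0.154 missed the threshold (limma). The lowest and highest replicate-block bounds of the group were 0.764 (Piwil1) and 1.51 (Tdrd5). With the batch block, 3 of the 8 log2 intervals left out 0. They were -0.36 to -0.015 for Piwil1, 0.14 to 0.56 for Tdrd5 and 0.0047 to 0.43 for Tdrd9. None of the 3 was called (limma, adjusted p = 0.299, 0.104 and 0.329), and 14.6% of all probe sets had an unadjusted p under 0.05 in that fit.

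**Figure D2:**
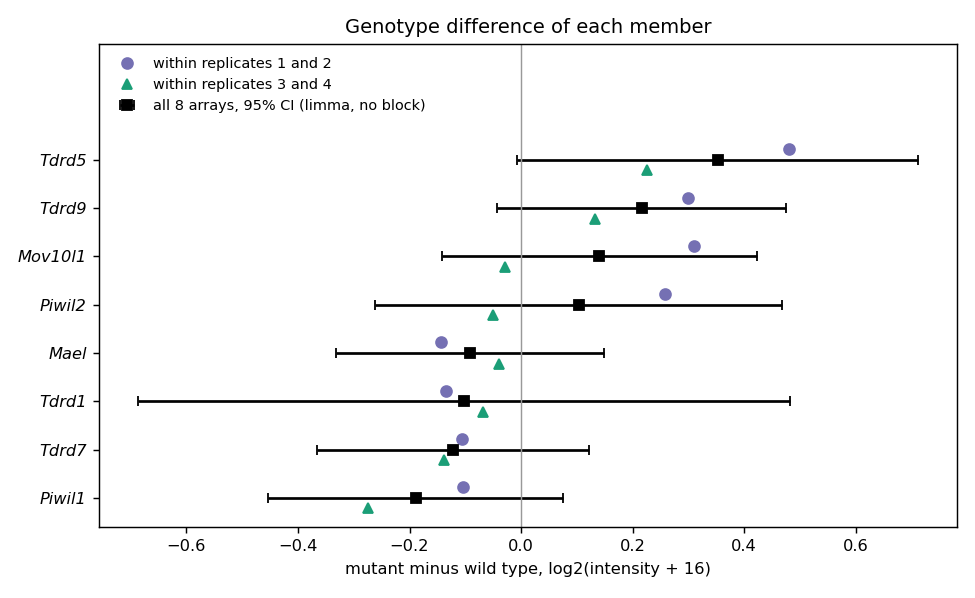
Difference between mutants and wild type for each tested member, in log2(intensity + 16). Black squares and bars are the estimate and 95% confidence interval from all 8 arrays, purple circles the difference within replicates 1 and 2 and green triangles that within replicates 3 and 4. All 8 bars cross 0, and Piwil2 and Mov10l1 have their circle and triangle on opposite sides of 0.

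In replicates 1 and 2, 4 members had higher and 4 lower means in mutants, and in replicates 3 and 4 the split was 2 and 6. Tdrd5 and Tdrd9 had positive differences in both pairs of replicate numbers (0.48 and 0.23 for Tdrd5, 0.30 and 0.13 for Tdrd9), and Piwil1, Tdrd1, Tdrd7 and Mael negative ones in both. For Piwil1 these were -0.10 and -0.27. No member's genotype difference was called different between the pairs (limma interaction, lowest adjusted p = 0.789), nor was any of the 27022 probe sets (0%).

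By replicate number, Tdrd1 and Piwil2 separated without overlap, and no member did so by genotype. For Tdrd1 all 4 mice of replicates 3 and 4 lay below all 4 of replicates 1 and 2, with means of 488 ± 78.1 against 766 ± 49.3 (SD, n = 4 each). For Piwil2 these were 3462 ± 110 and 4468 ± 515, also without overlap. No member was higher in replicates 3 and 4 without overlap. Of all probe sets 35.9% separated in this way, 16.1% lower and 19.8% higher in replicates 3 and 4, so 2 of 8 is no more than the background. These sets of mice were defined from the data and no test is given. The log2 differences of the other 6 members, replicates 3 and 4 minus 1 and 2, ran from -0.34 (Tdrd5) through -0.19 (Piwil1) and -0.17 (Mael) to 0.06 (Mov10l1).

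Another 30 genes are called other pathway genes here. Of these, 7 were listed for a Tudor domain rather than for a role in the pathway, and the rest by function. The 30 gave 49 tested probe sets for 28 genes. Without a block 0 were called, beside 0.115% of all probe sets. An unadjusted p under 0.05 was reached by 2 of the 49, beside 7.43% of all (limma). Their median log2 difference was 0.02, with 25 positive and 24 negative. With either block 1 was called, lower in mutants, where 2.18% and 1.48% of all probe sets were called lower: Akap1, which encodes a mitochondrial anchor protein with a Tudor domain. Its brighter probe set read 2241, 3334, 2524 and 1425 in wild type and 287, 937, 563 and 720 in mutants, without overlap. Akap1 fell by 1.95 on the log2 scale, or 3.87-fold (limma, adjusted p = 0.0142 with the replicate block, 0.0298 for the batch block, 0.0936 without). The second Akap1 probe set read 766 ± 59.9 and 621 ± 142 (SD, n = 4 each), with -0.33 as its log2 difference, and no fit of the 3 called it.

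Dnmt3l, which encodes a cofactor of de novo DNA methylation at transposons, also separated without overlap, at 123 to 247 in wild type and 64.2 to 111 in mutants. Akap1 and Dnmt3l were the 2 of 49 probe sets that did so, beside 6.1% of all probe sets. The log2 difference of Dnmt3l, -0.93, missed the threshold (limma, adjusted p = 0.197, and 0.0945 or 0.0793 once the replicate or the batch was blocked). Dnmt3a, a de novo DNA methyltransferase gene, had 5 probe sets that disagreed in sign, from -0.46 to 0.53, and Morc1, a germ cell gene of transposon silencing, had a log2 difference of 0.34. None of these was called.

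Among biogenesis genes and PIWI partners, log2 differences ran from -0.27 (Gtsf1) to 0.20 (Gpat2), with a median of 0.05. Both are named here after their values were seen. Gtsf1, a zinc finger gene whose protein works with PIWI proteins, read 10185 ± 1644 and 8367 ± 779 (SD, n = 4 each) on that probe set. Each mutant read below the wild-type mouse of the same number, and the replicate-block interval ran from -0.46 to -0.08 (limma, adjusted p = 0.166 in that fit). The other Gtsf1 probe set had a log2 difference of -0.02. Ddx4, the germ cell helicase also known as MVH or VASA, read 3826 to 7858 over the 8 mice with a log2 difference of 0.06 (adjusted p = 0.999). Tdrkh, a mitochondrial Tudor domain gene whose protein binds MIWI, read 534 ± 36.2 and 592 ± 37.7, a log2 difference of 0.14. The transcription factor gene Mybl1 had log2 differences of -0.03 on both of its probe sets. Among 15 tested probe sets of piRNA biogenesis genes and PIWI partners 0 were called in any fit, as were 0 of 4 for transcription of precursors and 0 of 13 for transposon silencing and arginine methylation. Akap1 was the 1 call among 17 of the other Tudor domain genes.

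**Figure D3:**
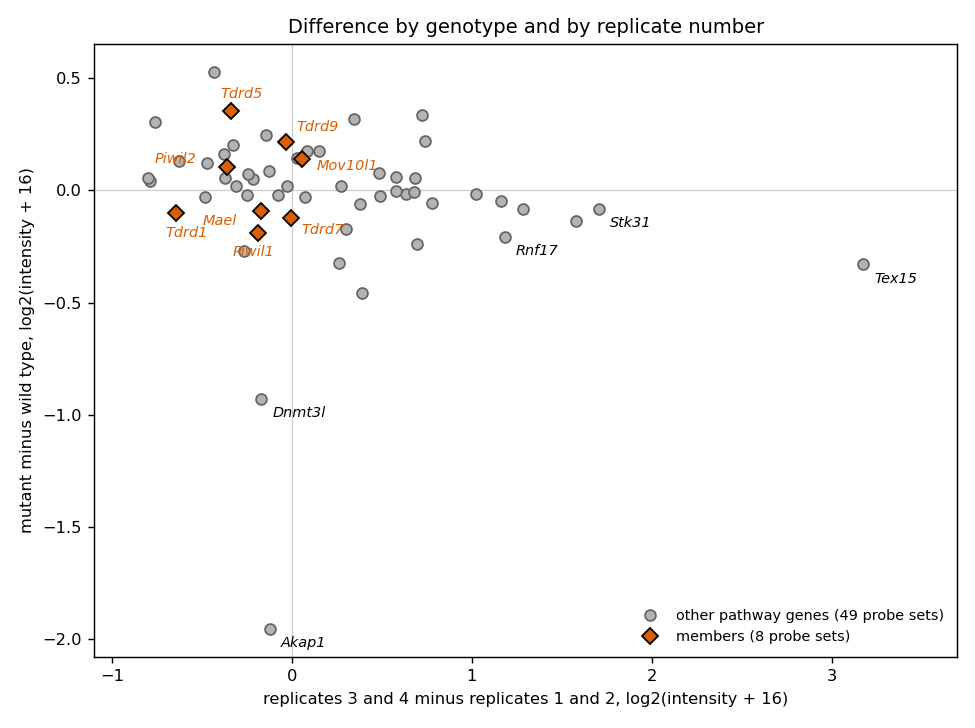
Each point is a tested probe set, placed by its difference between replicates 3 and 4 and replicates 1 and 2 (horizontal) and between mutants and wild type (vertical), both in log2(intensity + 16). The 8 members (orange) lie between -0.65 and 0.06 horizontally and between -0.19 and 0.35 vertically, while Tex15 lies far to the right and Akap1 far down.

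Several other pathway genes differed more between replicate numbers than the members did, in either direction. Prmt5 and Tex19.1, named after their values were seen, were lower in replicates 3 and 4, with log2 differences of -0.79 and -0.76. Rnf17, a Tudor domain gene of spermatid granules, read 608 to 1330 in replicates 1 and 2 and 1621 to 2132 in replicates 3 and 4 on its brightest probe set, a log2 difference of 1.18, against -0.21 between genotypes. Tex15 and Stk31, singled out after their values were seen, differed by 3.18 and 1.71 between the pairs of replicate numbers and by -0.33 and -0.08 between genotypes. Tex15, a gene of meiosis and transposon silencing, read 86.6 to 286 in replicates 1 and 2 and 1424 to 2002 in replicates 3 and 4. Of the 49 pathway probe sets, 15 were higher and 9 lower in replicates 3 and 4 without overlap, beside 19.8% and 16.1% of all probe sets. The lower count is near that background. The 15 hold more than 1 probe set each of Hsp90aa1, Rnf17, Asz1 and Stk31. They are therefore not independent, and an excess over the background was not tested. Spermatocyte markers differed in the same mice: 6 of 9 had higher means in replicates 3 and 4, with a median log2 difference of 0.56, and Sycp1 and Sycp2 differed by 1.97 and 2.21, while Ccna1 and Ldhc had lower means (-0.59 and -0.29). Their part in the values of Rnf17, Tex15 and Stk31 was not tested.

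Markers of germ cell stages were read beside these values. In mutants 7 of 9 spermatocyte markers had slightly negative log2 differences with a median of -0.03, and their summed intensity was 46664 to 51417 in wild type and 45164 to 55343 in mutants. None of these 9 was called in any of the 3 fits. The summed intensity of 6 round spermatid markers was 13418 to 20808 in wild type and 5406 to 13715 in mutants, with a median log2 difference of -1.29 and 0 called. Acr, the brightest of the 6, had a log2 difference of only -0.07, while the others ran from -0.89 (Spaca1) to -1.44 (Catsper3). All 7 elongating spermatid markers had negative differences, median -3.28, with sums of 70603 to 123976 and 3579 to 25601, and 1 of them was called lower when unblocked, 6 under the replicate block and 4 under the batch block. No marker of these 3 lists was at 0 in any mouse. Akap1 and Dnmt3l are lower in the same mice as these spermatid markers other than Acr, and the part of cell composition in either difference was not tested. Sums of Sertoli markers were 23312 to 25894 in wild type and 25542 to 31691 in mutants, those of spermatogonial markers 4925 to 5313 and 5090 to 6966.

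**Figure D4:**
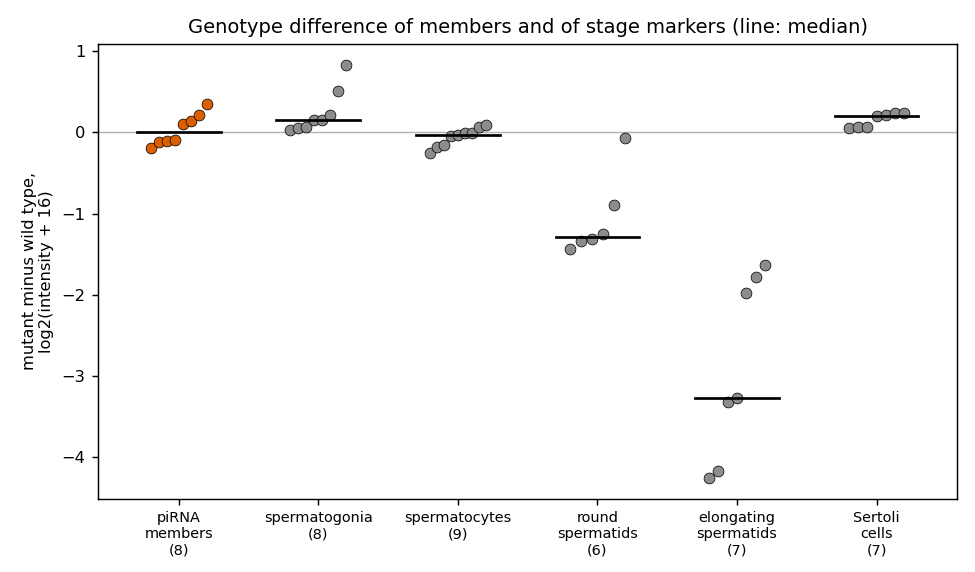
Log2 difference between mutants and wild type, in log2(intensity + 16), for the 8 tested members and for marker genes of 5 cell types, 1 point per gene on its brightest probe set, with the number of genes in brackets and a line at the median. The members span -0.19 to 0.35 around a median of 0.01. Spermatocyte markers have a median of -0.03 and elongating spermatid markers a median of -3.28. All tested probe sets have a median of 0.07, so a median near 0 does not assign the members to a stage.

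The members did not follow a single pattern over the 8 mice. Pearson's r of log2 values, given as a description over 8 arrays that share the differences by genotype and replicate number, ran from 0.84 for Piwil2 with Tdrd5 to -0.68 for Tdrd7 with Tdrd9. Piwil2 and Tdrd1 (0.77), Tdrd1 and Mael (0.76) and Tdrd9 and Mov10l1 (0.74) followed. Piwil1 was closest to Mael among members (0.64) and almost unrelated to Tdrd5 (0.05). Over all 13794 other genes, the profiles most like Piwil1 were those of Eno4 (0.98), Ccdc88c (0.96) and Nemp1 (0.96). For Piwil2 they were Tpbgl (0.99), Efhd2 (0.99) and Wdr5 (0.99), and for Mael they were Trim69 (0.97), Fam170a (0.96) and Insl6 (0.96). These values are the highest out of 13794 genes, whereas that of the closest member is the highest out of only 7. Because of these unlike search sizes, they cannot be compared with the values among members. Shared regulation of these genes with Piwil1, Piwil2 or Mael was not tested.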

How the data were processed

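RNA of whole testis was measured on Affymetrix arrays, 1 per mouse, 4 mice per genotype. The authors deposited linear intensity values per probe set, which the submitters' processing notes credit to GCOS, per the labels. No version or setting was given in the sources used here. Every array has the same trimmed mean, so arrays were scaled to a common target, and differences in the shape of their distributions remain. Of 45101 probe sets, 64 AFFX controls were left out. The platform annotation gave 34945 of the other 45037 a single symbol, 932 several and 9160 none, with symbols updated through Entrez identifiers.

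Values were taken as log2(intensity + 16), which understates changes of dim probe sets. Probe sets with a mean above the 40th percentile, 27022, were tested with limma (version 3.58.1, R 4.3.3) using eBayes with a trend on intensity, and the two-sided p-values were adjusted over all of them by Benjamini-Hochberg. p-values measure the spread between mice. The test was checked on simulated data. Figures were drawn with matplotlib 3.10.9.

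Both genotypes carry the replicate numbers 1 to 4. After the mean of each genotype was removed, mice that share a number correlated (r from 0.519 to 0.618 over probe sets), so the replicate block was fitted beside the unblocked test. For 2 of the 8 mice the most alike mouse of the other genotype, out of 4, was the one that shares its number. A random choice would give as many, and the labels name no pairs, so mice of the same number were not shown to be matched. A batch block of replicates 1 and 2 against 3 and 4 was fitted too. The members and lists were chosen with earlier results of these data known. Named were all members and, of the other pathway genes, those called in any of the 3 fits, the 4 with the largest difference on any tested probe set, and Ddx4, Mybl1, Rnf17 and Tdrkh. Likeness was measured on the brightest probe set of each gene. Alternatives covered scaling, pseudocount, filter, 1 probe set per gene, no trend and leaving out each mouse.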

Additional observations from a re-analysis of the deposited data

Results flagged for a closer look

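In 42 groups of 4 mice checked over 21 probe sets, 2 had a mouse far from the other 3 by Dixon's criterion, where chance flags about 1 in 20. Mutant replicate 2 read 13090 for Mael, while the other mutants lay between 11093 and 11211. Wild-type replicate 4 read 622 for Mybl1, while the other controls lay between 492 and 513.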

How the results depend on the processing

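Under 19 alternatives 0 of the members' probe sets were called, with adjusted p-values from 0.104 to 1.00 (limma), and 148 of 152 recomputed differences of the 8 tested members kept their direction. The 4 others came from leaving out 1 mouse: Tdrd1 ran from -0.29 to 0.038 and Piwil2 from -0.0043 to 0.20. Among other pathway genes these ranges were -0.10 to 0.25 for Ddx4, -0.16 to 0.25 for Mybl1, -0.51 to 0.080 for Rnf17 and -0.12 to 0.051 for the brightest probe set of Dnmt3a. Leaving out 1 mouse without a block makes the batches uneven between genotypes. Median centring moved the median of all probe sets from 0.07 to 0.03. The count over all probe sets was 31, and 58 with a pseudocount of 64, 646 with the replicate block, 485 with the batch block, and 0 to 119 when each mouse was left out (0 when wild-type replicate 1, 2, 3 or else mutant replicate 3, 4 was omitted, 12 without mutant replicate 2, 56 without wild-type replicate 4 and 119 without mutant replicate 1). It was 701 when the batch block was fitted without mutant replicate 1, an alternative chosen after seeing the data. The count of other pathway probe sets was 0, and 1 (Akap1) with the replicate block, with the batch block, and with the batch block without mutant replicate 1, where Akap1 had a log2 difference of -1.54. The replicate block changed no other call among the genes named. The cause of these shifts was not tested. Values of the dimmer Piwil4 probe set, tested only with no filter, depend on the pseudocount (-1.23 with 1 and -0.18 with 64). Signal over background is unknown for dim probe sets.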
